A study of Bos taurus with 15 samples.

Results

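Ethanolamine kinase 1 (ETNK1) and 9 further enzymes that make phosphatidylethanolamine and phosphatidylcholine were followed in pools of bovine blastocysts. The 10 genes were taken by symbol from the table of read counts that the authors had filtered on low values. All 10 were among its 10832 genes, out of 34773 genes in the table without the filter. ETNK1 led the choice because of its measured values, so its levels and fold changes are given as a description with no test. It was the 1 gene (0.00923% of 10832) with an adjusted p under 0.05 in embryos cultured with frozen vesicles against controls (edgeR adjusted p = 0.0196, given as the value that chose it and not as support). No gene passed that threshold without Co replicate 3 or 4 or FoEV replicate 1, 4 or 5, and the number of genes that passed was 57 to 311 with the title replicate number as a block, DESeq2, no filter or a robust likelihood ratio test. The genes just outside that threshold, LOC781612 and TERC, both had an adjusted p of 0.0578. The other 9 genes were chosen for their place in the pathway, with earlier results of these data known. They were tested with adjustment across all genes.

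Phosphatidylethanolamine and phosphatidylcholine are the main phospholipids of animal cell membranes. In the CDP-ethanolamine and CDP-choline branches, a kinase phosphorylates ethanolamine or choline, a cytidylyl-transferase activates the product with CTP, and a transferase joins it to diacylglycerol. In a parallel route, phosphatidylserine is made by head-group exchange and is then decarboxylated to phosphatidylethanolamine in mitochondria. Cleaving embryos enlarge their total membrane area as cells divide and as the blastocyst cavity forms.

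Embryos produced in vitro were cultured with no vesicles added (Co), with freshly prepared extracellular vesicles from oviduct fluid (FeEV) or with such vesicles after freezing and thawing (FoEV). The vesicles came from slaughterhouse cows judged to be postovulatory, and the fresh and frozen preparations were parts of the same material, so that the treatments share their vesicle donors. Each treatment had 5 libraries, each from 1 ng of total RNA of a pool of 8 to 14 blastocysts of day 7 (the methods text gives 8 days of culture). They were selected on RNA quality and concentration from 6 Co, 7 FeEV and 8 FoEV pools. Breed, embryo sex and culture run are not given in the sources used here, so that p-values measure the spread between these pools only.

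Library totals in the unfiltered table were 2571558 to 2977004 counts in Co, 2136713 to 3808602 in FeEV and 3392613 to 4058887 in FoEV, and every FoEV library was deeper than every Co library. Levels are given as counts per 1000000 (CPM) scaled by the trimmed mean of M-values (TMM), with scaling factors of 0.884 to 1.10, and every mean stands with its SD over the 5 libraries of a treatment. The trophectoderm genes KRT8, KRT18, GATA2, GATA3, CDX2, TFAP2A and TFAP2C were in the filtered table, and all 3 inner cell mass genes (NANOG, POU5F1, SOX2) were as well, so that the libraries carried the markers of the labelled stage. The trophectoderm gene IFNT2 was below the filter, with 0 to 9.49 CPM over all libraries. Of 6 cumulus cell markers 2 passed the filter, and PTX3 was at 0 in every Co and FoEV library. Of 6 oviduct epithelium markers 3 passed, with a summed level over all 6 of 22.9 to 45.9 CPM in Co, 20.1 to 26.7 in FeEV and 20.4 to 43.1 in FoEV.

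ETNK1 (gene 540705), which phosphorylates ethanolamine in the first step of the CDP-ethanolamine branch, was lowest in FoEV embryos, intermediate in FeEV embryos and highest in Co embryos. In Co replicates 1 to 5 its level was 166, 184, 174, 207 and 165 CPM. In FeEV replicates 1 to 5 it was 152, 156, 131, 170 and 117 CPM. In FoEV replicates 1 to 5 it was 115, 129, 102, 97.5 and 114 CPM. All 5 FoEV libraries lay below all 5 Co libraries, a gap that 1.35% of all genes showed in this direction. ETNK1 was chosen on these values, so the gap is a description and not support. Of the 5 FeEV libraries, 4 lay below every Co library and 1 lay inside the Co range. Between the vesicle treatments, 4 of 5 FoEV libraries lay below every FeEV library. The means were 179 ± 17.3 CPM in Co, 145 ± 21.3 in FeEV and 111 ± 12.3 in FoEV. In bulk RNA of a pool, fewer cells of a type and less RNA per cell cannot be told apart.

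**Figure D1:**
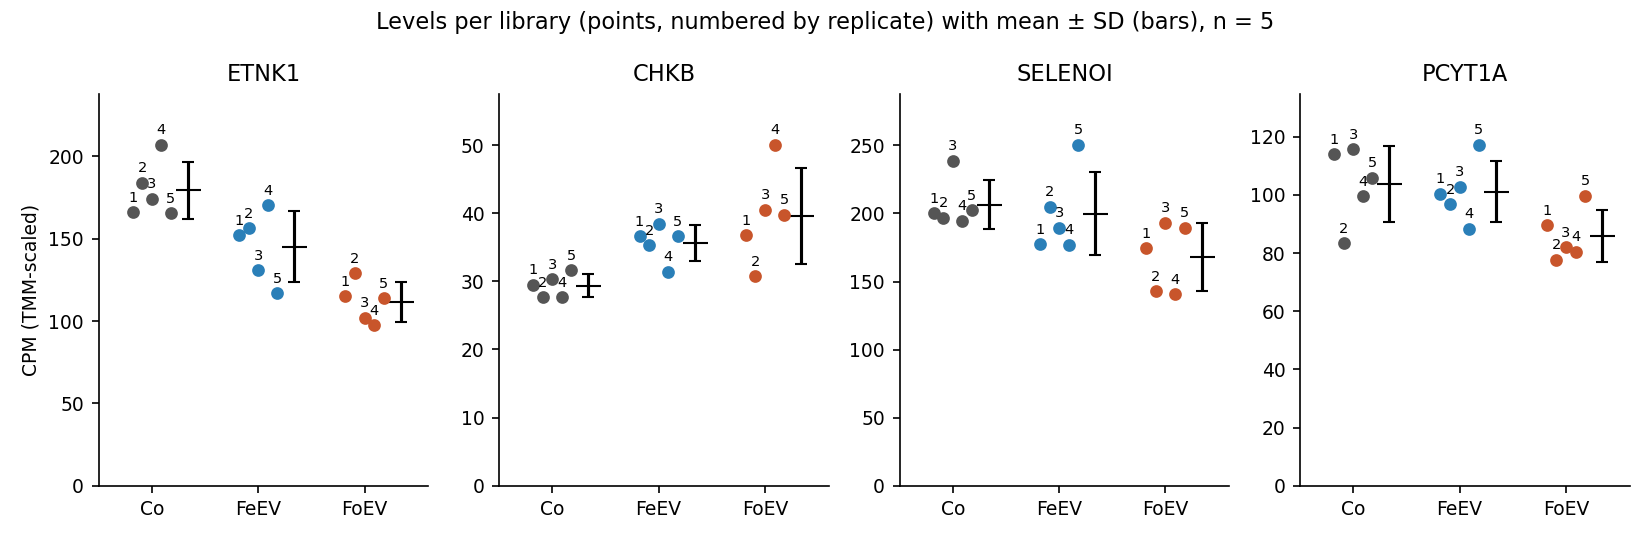
Levels of ETNK1, CHKB, SELENOI and PCYT1A in CPM (vertical axes, from 0) in the Co, FeEV and FoEV libraries. Points are libraries numbered by replicate, and bars are the mean ± SD of 5 libraries. ETNK1 goes from a mean of 179 CPM in Co over 145 in FeEV to 111 in FoEV, and CHKB runs the other way, from 29.4 over 35.7 to 39.6 CPM.

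On the log2 scale the difference in ETNK1 was -0.68 for FoEV vs. Co (SE 0.11, 95% interval -0.90 to -0.46), which is a fold of 0.623. It was -0.31 for FeEV vs. Co (SE 0.11, interval -0.53 to -0.09), a fold of 0.808. Between FoEV and FeEV it was -0.38 (SE 0.11, interval -0.60 to -0.15), a fold of 0.770. FoEV vs. Co and FeEV vs. Co share the Co libraries, and FoEV vs. FeEV uses the FoEV and FeEV libraries again. These values are thus not independent of each other. ETNK1 was chosen on its FoEV and Co values, and the FoEV libraries also enter FoEV vs. FeEV.

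The counts behind ETNK1 were 403 to 545 per library in Co, 374 to 510 in FeEV and 292 to 511 in FoEV. Its share of all counts was 0.0145% to 0.0201% in Co, 0.0110% to 0.0175% in FeEV and 0.00861% to 0.0135% in FoEV. The highest FoEV share (replicate 2) had a Wilson 95% interval of 0.0124% to 0.0147%, and the lowest Co share (replicate 5) one of 0.0132% to 0.0160%. These neighbouring intervals overlapped, and they cover counting error only. The spread between libraries of 1 treatment (coefficients of variation of 9.64%, 14.7% and 11.1% in the order Co, FeEV and FoEV) was above the counting error of 4.54%, 4.86% and 5.00%.

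ETNK1 counts of FoEV and Co libraries overlapped, while every FoEV total was above every Co total. With all libraries thinned to the total of the smallest one, the log2 difference for FoEV vs. Co was -0.70, and with library sizes in place of TMM factors it was -0.67. Of the 7 trophectoderm markers tested, 4 (KRT18, GATA3, GATA2 and KRT8) were higher in FoEV than in Co at an unadjusted p under 0.05, where 8.18% of all genes were, and none passed after adjustment. KRT18 had the smallest p (log2 difference 0.55, edgeR adjusted p = 0.0818), and TFAP2A lay the other way (log2 difference -0.49, edgeR adjusted p = 0.444). The summed level of all 8, IFNT2 included, was 6376 to 8631 CPM in Co, 6951 to 10425 in FeEV and 8284 to 11211 in FoEV. Most of this sum came from KRT8 and KRT18, with means of 4266 and 2684 CPM in Co and 5088 and 3929 in FoEV. It thus says little about the other trophectoderm markers. The 3 inner cell mass markers had log2 differences of -0.84 (NANOG, edgeR adjusted p = 0.178), 0.21 (POU5F1, adjusted p = 0.368) and -0.03 (SOX2, adjusted p = 0.969), none past the adjusted threshold, and the summed level of the 3 was 233 to 306 CPM in Co, 232 to 292 in FeEV and 219 to 338 in FoEV. With its own robust likelihood ratio test, the paper lists NANOG as lower and KRT18 as higher in FoEV than in Co. The part of the trophectoderm and inner cell mass markers in the ETNK1 values was not tested.

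**Figure D2:**
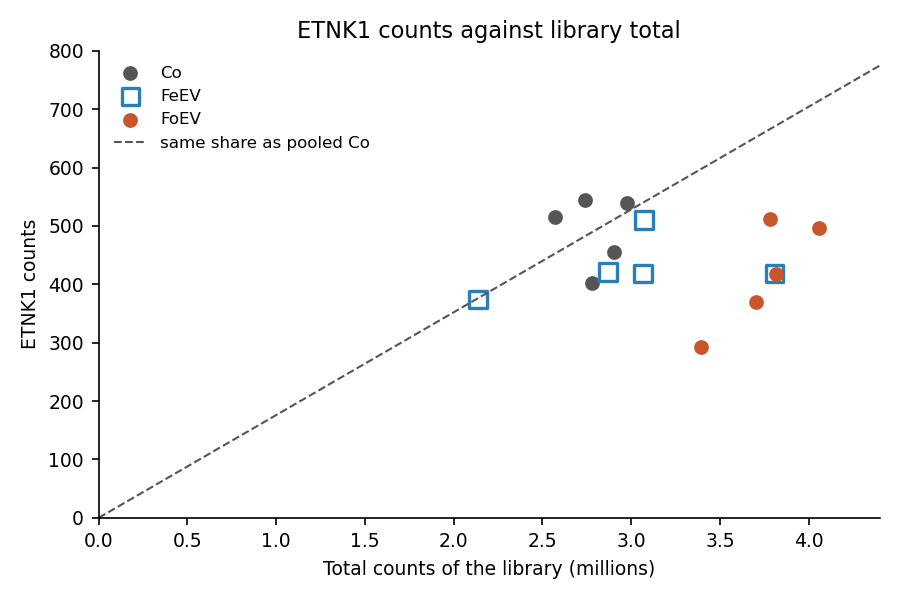
ETNK1 counts (vertical axis) against the total counts of each library in units of 1000000 (horizontal axis), 1 point per library. The dashed line is the ETNK1 share of the pooled Co counts. All 5 FoEV libraries lie below the line at totals of 3392613 to 4058887, and the Co libraries lie around it.

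The other kinases of this step phosphorylate chiefly choline. CHKB (choline kinase beta, gene 536213) had 29.5, 27.7, 30.3, 27.7 and 31.6 CPM in Co replicates 1 to 5. In FeEV it had 36.7, 35.3, 38.5, 31.4 and 36.6 CPM, and in FoEV 36.8, 30.8, 40.5, 50.1 and 39.8 CPM. In each vesicle treatment 4 of 5 libraries lay above every Co library, so that the groups overlapped by 1 library (FeEV replicate 4 and FoEV replicate 2). The log2 difference was 0.43 for FoEV vs. Co (SE 0.12, edgeR adjusted p = 0.140). It was 0.29 for FeEV vs. Co (SE 0.13, edgeR adjusted p = 0.99995), and 0.14 for FoEV vs. FeEV (SE 0.12, edgeR adjusted p = 0.746). Both differences from Co were under 0.05 unadjusted, and neither passed after adjustment. With Co replicate 2 or 4 or FeEV replicate 1, 3 or 5 left out, the unadjusted p for FeEV vs. Co was 0.0580 to 0.0741, whereas that for FoEV vs. Co stayed at 0.00984 or less with any library left out.

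CHKA (choline kinase alpha, gene 514865), which is known as the main choline kinase of dividing cells and also accepts ethanolamine, varied most of the 10 genes. Its range was 7.76 to 20.4 CPM in Co, 5.47 to 16.2 in FeEV and 6.34 to 28.1 in FoEV, with coefficients of variation of 39.5%, 39.5% and 51.4%. Its 12 to 103 counts per library gave a counting error of 14.9% to 20.2%, which is below this spread. The log2 difference was 0.22 for FoEV vs. Co (95% interval -0.56 to 0.99, edgeR adjusted p = 0.811). It was 0.69 for FoEV vs. FeEV (interval -0.10 to 1.48, adjusted p = 0.609). For FoEV vs. FeEV the unadjusted edgeR p was 0.0838. This p was under 0.05 in 3 of 9 alternatives and in 2 of 10 fits without a single library. The value for FeEV vs. Co was -0.47 (interval -1.29 to 0.35, adjusted p = 0.99995). The interval for FeEV vs. Co reaches past 0.68, the size of the ETNK1 difference, on the lower side, and the other intervals do so on the higher side. ETNK2, the second ethanolamine kinase gene, was below the filter, with 5 to 21 counts per library and means of 2.65 CPM in Co, 4.05 in FeEV and 3.23 in FoEV.

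Among the cytidylyl-transferases, PCYT1A serves the choline branch, where it sets the pace of phosphatidylcholine synthesis, and PCYT2 serves the ethanolamine branch. PCYT1A (gene 100125779) had 114, 83.3, 116, 99.5 and 106 CPM in Co replicates 1 to 5. FeEV libraries had 100, 96.9, 103, 88.4 and 117 CPM and FoEV libraries 89.6, 77.7, 82.1, 80.5 and 99.8 CPM. FoEV replicates 2, 3 and 4 lay below every Co library, and Co replicates 2 and 4 lay within the FoEV range. The log2 difference was -0.27 for FoEV vs. Co (SE 0.11, edgeR adjusted p = 0.230) and -0.24 for FoEV vs. FeEV (SE 0.11, edgeR adjusted p = 0.557), both under 0.05 unadjusted. For FeEV vs. Co it was -0.03 (95% interval -0.25 to 0.19). Without Co replicate 3 the unadjusted p for FoEV vs. Co was 0.0548.

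PCYT2 (gene 510274), the enzyme that takes up the product of ETNK1, showed no difference beyond the spread between libraries. Its means were 45.4 ± 8.54 CPM in Co, 48.0 ± 9.38 in FeEV and 50.3 ± 6.44 in FoEV. The log2 difference for FoEV vs. Co was 0.15 (95% interval -0.15 to 0.45, edgeR adjusted p = 0.652). PCYT1B, the second phosphocholine cytidylyl-transferase gene, had 9 to 40 counts per library and means of 5.13, 6.18 and 7.47 CPM in Co, FeEV and FoEV, with a log2 difference of 0.52 for FoEV vs. Co (SE 0.33, 95% interval -0.16 to 1.204).

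The last step is carried out by SELENOI, a selenoprotein that makes phosphatidylethanolamine, by CHPT1, which makes phosphatidylcholine, and by CEPT1, which makes both. SELENOI (gene 506381) had 200, 197, 239, 195 and 202 CPM in Co replicates 1 to 5. In FeEV it had 177, 205, 190, 177 and 251 CPM, and in FoEV 175, 143, 193, 141 and 189 CPM. All FoEV libraries lay below all Co libraries, with 193.1 CPM in the highest FoEV library (replicate 3) and 194.7 CPM in the lowest Co library (replicate 4). Such a gap between the groups in either direction was seen in 2.6% of all genes and, with FoEV lower, in 1.35%. The log2 difference was -0.30 for FoEV vs. Co (SE 0.11, edgeR adjusted p = 0.216) and -0.25 for FoEV vs. FeEV (SE 0.11, edgeR adjusted p = 0.560), both under 0.05 unadjusted. The value for FeEV vs. Co was -0.05 (95% interval -0.28 to 0.18). Co replicate 3 was the highest Co library, and without it the log2 difference for FoEV vs. Co was -0.24 with an unadjusted p of 0.0521.

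For PCYT1A and SELENOI, the unadjusted p for FoEV vs. FeEV also rested on single libraries. Without FeEV replicate 5, the highest FeEV library for both genes, it was 0.115 for PCYT1A and 0.161 for SELENOI. It was also above the threshold for PCYT1A without FeEV replicate 3 (0.0556) or FoEV replicate 2 (0.0809), 3 (0.0579) or 4 (0.0639). For SELENOI this held without FeEV replicate 2 (0.0571) or FoEV replicate 2 (0.0996) or 4 (0.0993).

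CEPT1 (gene 504650) had means of 42.0 ± 5.95 CPM in Co, 44.1 ± 5.28 in FeEV and 37.7 ± 10.1 in FoEV. CHPT1 (gene 511291) had means of 26.4 ± 4.74, 25.6 ± 7.77 and 23.5 ± 10.7 CPM in the same order. FoEV replicate 4 was the lowest of the 15 libraries for both genes, with 22.4 and 12.4 CPM. The log2 differences for FoEV vs. Co were -0.15 for CEPT1 (95% interval -0.48 to 0.18, edgeR adjusted p = 0.675) and -0.16 for CHPT1 (interval -0.73 to 0.40, adjusted p = 0.806). For CHPT1, 3 FoEV libraries lay below and 2 above the whole Co range.

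In the phosphatidylserine route, PTDSS1 makes phosphatidylserine from phosphatidylcholine and PISD decarboxylates phosphatidylserine to phosphatidylethanolamine in mitochondria. PISD (gene 505332) had means of 16.5 ± 3.37 CPM in Co, 18.9 ± 3.03 in FeEV and 20.5 ± 3.87 in FoEV. Its log2 difference was 0.32 for FoEV vs. Co (95% interval -0.04 to 0.68, edgeR adjusted p = 0.392) and 0.20 for FeEV vs. Co (interval -0.17 to 0.57). With the library number of the descriptions as a block these became 0.56 (edgeR adjusted p = 0.186) and 0.47 (adjusted p = 0.931), both under 0.05 unadjusted. PTDSS1 (gene 509819) had means of 54.6 ± 4.28, 48.3 ± 3.58 and 50.2 ± 8.37 CPM, and its log2 differences were -0.12 for FoEV vs. Co (95% interval -0.36 to 0.12) and -0.18 for FeEV vs. Co (interval -0.42 to 0.07). Here 4 of 5 Co libraries lay above every FeEV library. PTDSS2, which makes phosphatidylserine from phosphatidylethanolamine, had 58.2 ± 7.19, 60.8 ± 11.96 and 68.6 ± 13.3 CPM in Co, FeEV and FoEV, with a log2 difference of 0.23 for FoEV vs. Co (SE 0.14, edgeR adjusted p = 0.449). PEMT, which methylates phosphatidylethanolamine to phosphatidylcholine chiefly in liver, was below the filter with 0 to 14 counts per library.

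**Figure D3:**
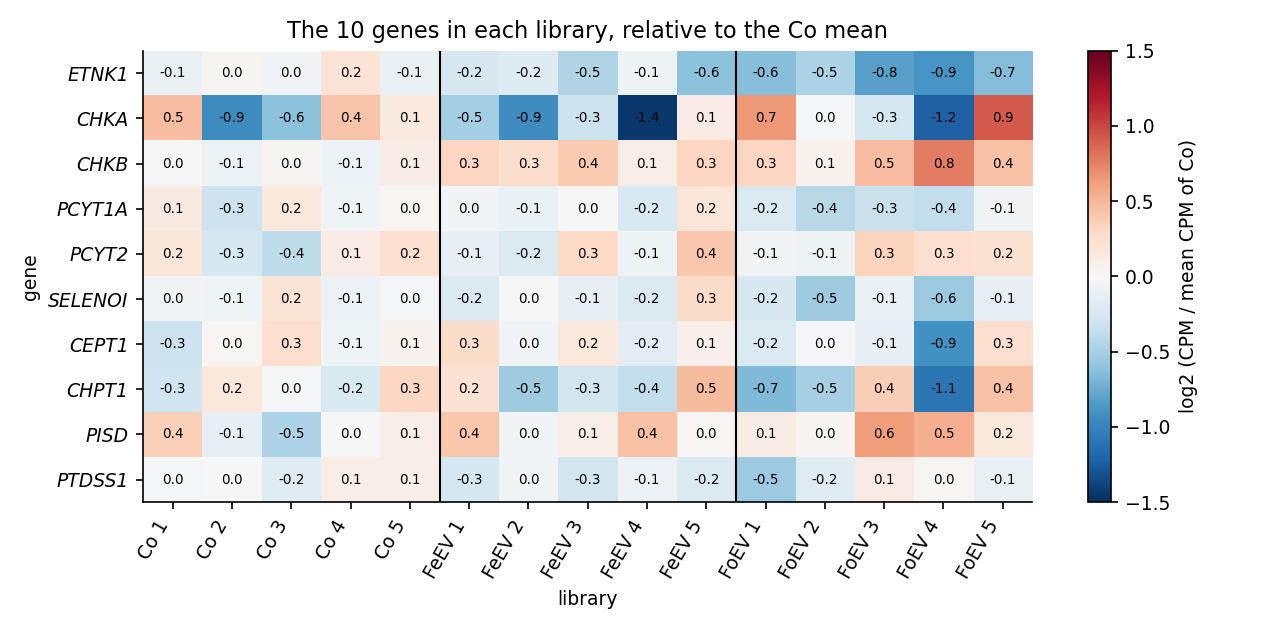
Each of the 10 genes (rows) in each of the 15 libraries (columns) as log2 of its CPM over its mean CPM in Co. Red is above and blue below the Co mean, and the numbers are the plotted values. The ETNK1 row is blue in all FeEV and FoEV libraries and the CHKB row is red in all of them, whereas CHKA, CEPT1 and CHPT1 are among the rows that vary in sign within treatments.

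Of the 9 genes besides ETNK1, 3 reached an unadjusted p under 0.05 for FoEV vs. Co (CHKB higher, PCYT1A and SELENOI lower), where 15.1% of all genes did, 8.18% with FoEV higher and 6.88% with FoEV lower. For FeEV vs. Co, 1 of 9 did (CHKB, higher in FeEV), against 4.15% of all genes, 1.83% with FeEV higher and 2.32% with FeEV lower. For FoEV vs. FeEV, 2 of 9 did (PCYT1A and SELENOI, lower in FoEV), against 8.52%, 4.83% with FoEV higher and 3.69% with FoEV lower. None of the 9 had an adjusted p under 0.05 in any comparison, and the smallest adjusted p was 0.140 for FoEV vs. Co. With so few genes these counts are descriptions. Signs were mixed within the branches. For FoEV vs. Co, 4 of the 9 log2 differences were above 0 (44.4%, beside 52.3% of all genes) and 5 below. Their median was -0.12 beside 0.01 over all genes.

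**Figure D4:**
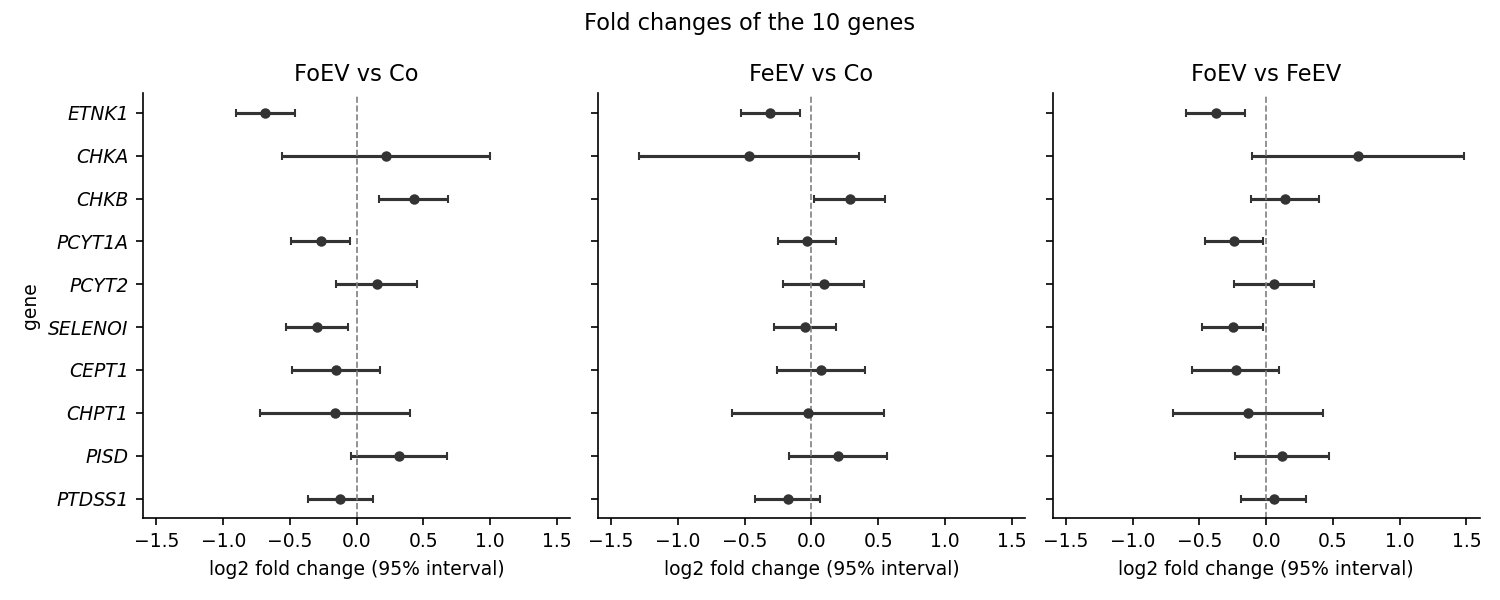
Log2 fold changes of the 10 genes (points) with 95% intervals (bars) in the 3 comparisons, on 1 horizontal scale. The ETNK1 interval lies below 0 in each panel, as a description of a gene chosen on these values. Those of CHKB, PCYT1A and SELENOI exclude 0 for FoEV vs. Co, and the widest intervals are those of CHKA.

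The genes with the same sign for FoEV vs. Co came from different steps. In the ethanolamine branch, the first enzyme (ETNK1, log2 difference -0.68) and the last (SELENOI, -0.30) were lower in FoEV, and the middle one (PCYT2) was at 0.15 with an interval that includes 0. In the choline branch, CHKB was at 0.43, CHKA at 0.22, PCYT1A at -0.27, PCYT1B at 0.52 and CHPT1 at -0.16. CEPT1, which serves both branches, was at -0.15. Apart from ETNK1, which was not tested, none of these genes had an adjusted p under 0.05. Whether the members of a branch differ from each other in their response was not tested.

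Across the 15 libraries, log2 CPM of ETNK1 had a Pearson r of -0.87 with CHKB, and of -0.74 for deviations from the treatment means. This is a description over libraries that share treatment and depth. With the 9 genes, r of ETNK1 ran from -0.87 to 0.35 with a median of 0.10, and within treatments from -0.74 to 0.18. Among the other 36 pairs the median was 0.15, with PCYT1A and SELENOI (0.79, within treatments 0.65), CEPT1 and CHPT1 (0.72, within treatments 0.71) and SELENOI and CHPT1 (0.63, within treatments 0.62) at the upper end. Between ETNK1 and SELENOI, which were both lower in FoEV, r was 0.35 over all libraries and -0.45 within treatments, so that among pools of 1 treatment a lower ETNK1 level did not go with a lower SELENOI level.

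Over all 10831 other genes, the patterns most like that of ETNK1 over the 15 libraries were those of STAG1 (cohesin subunit, Pearson r 0.91), MIA2 (0.91), SIRT1 (an NAD-dependent deacetylase, 0.91), STXBP4 (0.90) and ASCC3 (0.89). In CPM, STAG1 went from 72.7 ± 5.21 in Co over 67.6 ± 7.89 in FeEV to 60.8 ± 3.09 in FoEV, and STXBP4 from 41.7 ± 5.91 over 32.7 ± 6.85 to 24.96 ± 4.28. STXBP4 had a log2 difference of -0.73 for FoEV vs. Co, beside -0.68 for ETNK1. The most opposite patterns were those of SPINT2 (a membrane-bound serine protease inhibitor, -0.92), S100A14 (-0.91), RNH1 (ribonuclease inhibitor, -0.91), ZBTB17 (-0.91) and PTPRF (a receptor-type tyrosine phosphatase, -0.91). SPINT2 went from 102 ± 8.75 CPM in Co over 110 ± 5.51 in FeEV to 130 ± 8.21 in FoEV. The median r over all genes was -0.01. With treatment means removed, UBR1 (0.90), FAS (0.90) and NOSTRIN (0.88) came first. All of these were picked from 10831 genes by this measure, and with Spearman rho 3 of the 10 genes at both ends remained.

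The wider list of the pathway held 75 genes around these enzymes, of which 66 were in the filtered table. For FoEV vs. Co, 8 of 66 (12.1%, beside 15.1% of all genes) reached an unadjusted p under 0.05, 4 higher and 4 lower, and none passed the adjusted threshold (smallest edgeR adjusted p = 0.160). Their share was thus near that of all genes. The median log2 difference of the 66 was -0.05, with 28 above 0 (42.4%, beside 52.3% of all genes) and 38 below.

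Higher in FoEV were PHOSPHO1, a phosphatase of phosphoethanolamine and phosphocholine, AGPAT2, which makes phosphatidic acid, LPCAT4, a lysophospholipid acyltransferase, and PNPLA6, which deacylates phosphatidylcholine. PHOSPHO1 had 69.2 ± 16.2 CPM in FoEV and 48.7 ± 6.81 in Co, a log2 difference of 0.50. It acts on the product of ETNK1. AGPAT2 had 17.8 ± 3.28 and 11.3 ± 3.14 CPM, a log2 difference of 0.65. LPCAT4 (0.30) and PNPLA6 (0.32) differed by less. The edgeR adjusted p of these 4 genes was 0.160 to 0.278, so that none is a call.

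Lower in FoEV were SLC44A1, a choline transporter, CDS1, which makes CDP-diacylglycerol, NAPEPLD, which releases N-acylethanolamines from phosphatidylethanolamine derivatives, and PLA2G4A, the cytosolic phospholipase A2. SLC44A1 had 94.2 ± 22.5 CPM in FoEV and 120 ± 13.7 in Co, a log2 difference of -0.35. CDS1 (-0.31), NAPEPLD (-0.33) and PLA2G4A (-0.51) had edgeR adjusted p of 0.257 to 0.284. The groups of all 8 genes overlapped. Without Co replicate 5 the number of genes at an unadjusted p under 0.05 was 4, and without FoEV replicate 4 it was 3.

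By function, the 2 parallel enzymes in the table (PCYT1B and PTDSS2) both lay above 0 for FoEV vs. Co, with a median of 0.38. Of the 5 choline and ethanolamine transporters 3 lay above 0 (median 0.03), and of the 7 genes of the CDP-diacylglycerol branch 4 did (median 0.05). The 13 genes of diacylglycerol supply had 6 log2 differences above 0 and a median of -0.0038 for FoEV vs. Co, and the 8 of phospholipid remodelling had 4 above 0 and a median of -0.02. The 18 genes of breakdown and use had 8 above 0 and a median of -0.12. All 4 genes that move ethanolamine phosphate from phosphatidylethanolamine to the GPI anchor (PIGN, PIGO, PIGG, PIGF) lay below 0, at -0.21 to -0.00041, and none reached an unadjusted p under 0.05. Of the 9 phosphatidylserine carriers and flippases, 8 lay below 0 with a median of -0.12, again with none under that threshold. Over all genes, 52.3% of the log2 differences for FoEV vs. Co lay above 0. With so few genes per group, these signs are descriptions.

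**Figure D5:**
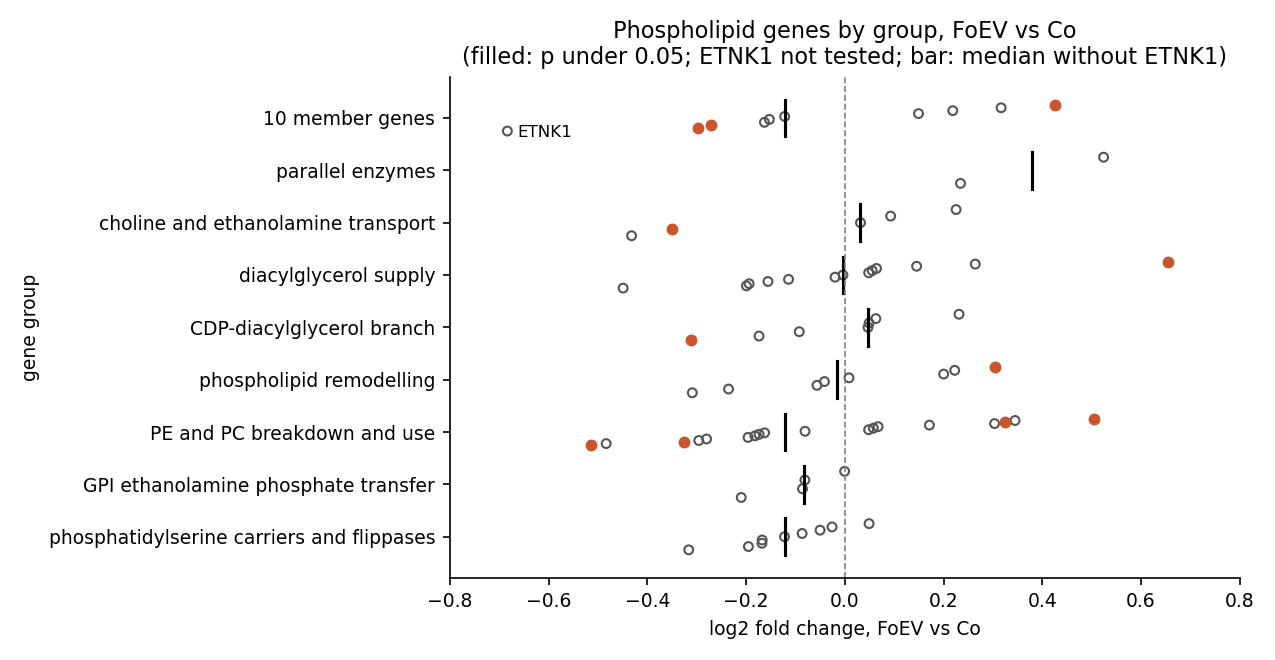
Log2 fold changes for FoEV vs. Co (horizontal axis) of the 10 genes and of the 66 further phospholipid genes, 1 circle per gene, by group (vertical axis). Filled circles have an unadjusted p under 0.05, vertical bars are group medians without ETNK1, and ETNK1 was not tested. ETNK1 lies at -0.68, and the lowest of the 66 is at -0.51.

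For FeEV vs. Co, 2 of 66 genes (3.03%, beside 4.15% of all genes) reached an unadjusted p under 0.05. SGPL1, which cleaves sphingosine phosphate to phosphoethanolamine, was at 84.8 ± 9.59 CPM in FeEV and 71.2 ± 4.41 in Co, and PLA2G4A was at 22.6 ± 3.73 and 33.0 ± 10.3 CPM, both with an edgeR adjusted p of 0.99995. The number was 1 without Co replicate 3 or FeEV replicate 4, and 4 without Co replicate 2. For FoEV vs. FeEV it was 8 of 66 (12.1%, beside 8.52%), with AGPAT2 (log2 difference 0.66) and LPCAT4 (0.24) higher, and FLVCR1 (-0.53), SLC44A1 (-0.31), AGPAT5 (-0.31), SGMS1 (-0.21), SGPL1 (-0.21) and ATP11A (-0.18) lower in FoEV. FLVCR1, a transporter of choline and ethanolamine, was the 1 gene whose groups did not overlap there, at 9.72 to 12.4 CPM in FoEV and 13.4 to 19.1 in FeEV, a gap that 1.5% of all genes showed. The smallest edgeR adjusted p of the 66 was 0.462. The number was 4 without FoEV replicate 1, and 5 without FoEV replicate 4 or FeEV replicate 3 or 4.

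In the gene list of RefSeq for assembly ARS-UCD2.0, which is not the assembly that the reads were mapped to, 6 of the 10 genes overlap the span of another gene. PCYT1A overlaps SLC51A, CHPT1 overlaps SYCP3, PISD overlaps SFI1, CHKA an uncharacterised protein-coding gene, and PCYT2 and SELENOI a microRNA gene each. ETNK1, CHKB, CEPT1 and PTDSS1 overlap none. The library preparation included strand selection, but whether reads were counted by strand is not given in the sources used here. Only gene spans were compared, and whether exons are shared was not examined. Reads of these partners may thus be among the counts of the 6 genes. Levels were not compared between genes, since transcript lengths were not at hand.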

How the data were processed

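RNA of 15 blastocyst pools was sequenced with single-end reads of 125 bases. The authors used the assembly ARS-UCD1.2 and its NCBI annotation for mapping, and they deposited raw counts per gene, with and without a filter on low CPM. The methods text names QuasR Qcount for counting, and the submitters' processing notes name Trim Galore 0.4.3.1, HISAT2 2.1.0 and featureCounts 1.6.3. Groups came from the sample titles. The filtered counts were fitted with edgeR 4.0.16 in R 4.3.3 (TMM factors from the filtered table, quasi-likelihood test with robust estimation, all 15 libraries, treatment as the only term), with Benjamini-Hochberg adjustment over 10832 genes and a threshold of 0.05. Standard errors were derived from the F statistic. CPM of genes below the filter used the same factors. Correlations used log2 CPM with a prior count of 2. Named genes were the 10 members, ETNK2, PCYT1B, PTDSS2, PEMT, the listed genes with the smallest unadjusted p under 0.05 (at most 8 per comparison) and the genes most like or unlike ETNK1. The members and lists were chosen with earlier results of these data known. The code was tested on simulated counts. No pair of replicates agreed within sampling noise (chi-square per gene of at least 3.74). Names matched for 10709 of the 10832 gene identifiers. The robust likelihood ratio test, an alternative here, is of the kind that the methods text describes. Further alternatives were DESeq2 1.42.0, other scalings, no filter, replicate blocks, thinning, and leaving out libraries. Library totals of 2136713 to 4058887 counts limit genes such as CHKA and PISD most.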

Additional observations from a re-analysis of the deposited data

Results flagged for a closer look

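In 1 of the 30 sets of 5 libraries examined (10 genes in 3 treatments), a single library stood apart by Dixon's criterion, which chance alone meets in about 5% of sets. This was SELENOI in Co replicate 3, at 238.6 CPM, with 202.3 CPM in the next Co library. The values without this library are given beside the result for SELENOI.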

How the results depend on the processing

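The log2 difference of ETNK1 kept its sign under all 9 alternatives and with any 1 library of the comparison left out. ETNK1 was chosen for its values in these libraries, so this is a description and not support. All 5 FoEV libraries lay below all 5 Co libraries, so leaving out 1 library could not turn the sign for FoEV vs. Co. For FoEV vs. Co it was -0.70 to -0.67 under the alternatives and -0.74 to -0.63 without single libraries, for FeEV vs. Co -0.36 to -0.27 and -0.37 to -0.24, and for FoEV vs. FeEV -0.40 to -0.32 and -0.45 to -0.31. Of the 27 values for the other 9 genes, 18 kept their sign throughout, and none passed an adjusted p of 0.05 in any fit (lowest 0.0543, CHKB for FoEV vs. Co without FoEV replicate 2).

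Signs turned with library sizes only for PCYT1A (0.0047) and CHPT1 (0.0054) in FeEV vs. Co, and with the library number of the descriptions as a block for CHKA in FoEV vs. Co (-0.11), CEPT1 in FeEV vs. Co (-0.13) and PCYT2 in FoEV vs. FeEV (-0.027). The cause was not tested. Without single libraries, CHKA for FoEV vs. Co ran from -0.030 to 0.42, for FeEV vs. Co PCYT1A from -0.10 to 0.011, PCYT2 from -0.0049 to 0.16, SELENOI from -0.14 to 0.012 and CHPT1 from -0.20 to 0.071, and for FoEV vs. FeEV PCYT2 from -0.0078 to 0.15, CHPT1 from -0.33 to 0.035 and PTDSS1 from -0.017 to 0.15.

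The number of all genes past the adjusted threshold for FoEV vs. Co (1) was 311 with the robust likelihood ratio test, 144 with DESeq2, 173 with no filter, 8 with library sizes only, 12 with the library-number block, 5 with only the libraries compared, and 0 to 58 without single libraries (0 without Co replicate 3 or 4 or FoEV replicate 1, 4 or 5, 4 without Co replicate 2, 14 without FoEV replicate 3, 58 without FoEV replicate 2). In the main fit none passed in the other comparisons, with 449 and 923 genes at an unadjusted p under 0.05. For FeEV vs. Co (0) it was 6 with the robust test, 1 with DESeq2 and 13 with no filter, and for FoEV vs. FeEV (0) 31, 3 and 22, with 1 under the library-number block and 0 to 1 without single libraries (1 without FeEV replicate 5).

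At an unadjusted p under 0.05, the number among the 9 genes without single libraries was 1 to 4 for FoEV vs. Co (1 without Co replicate 3), 0 to 1 for FeEV vs. Co and 0 to 3 for FoEV vs. FeEV (0 without FoEV replicate 2). For FeEV vs. Co it was 0 with DESeq2 and with no filter, and 2 with the library-number block. For the 66 listed genes it was 3 to 10, 1 to 4 and 4 to 9 without single libraries. The library-number block gave 15 for FoEV vs. Co and 2 for FoEV vs. FeEV, and thinning gave 5 for the latter. The share of all genes at this threshold was taken for the main fit only. Whether these counts moved with that share under the other settings was thus not examined. With Spearman rho, 3 of the 10 genes most like or unlike ETNK1 remained.

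Libraries were also compared by the correlation of their residuals, the deviations from the treatment means. Residuals cancel out within a treatment, so the mean for different numbers follows nearly from that for the same numbers. It is thus no separate baseline. Between libraries of the same title number, the mean correlation was 0.034 for FoEV and Co (-0.29 to 0.35), beside -0.0084 for different numbers. It was 0.14 (-0.21 to 0.42) beside -0.034 between FeEV and Co, and 0.19 (0.013 to 0.44) beside -0.046 between FoEV and FeEV. By library number the means were 0.076, 0.097 and 0.072 in the same order, beside -0.010, -0.013 and -0.014. Of the 15 libraries, 3 correlated best with their own title number in both other treatments. Title numbers run in order over the libraries kept in each treatment. For example, Co replicate 3 has library number 4 and FoEV replicate 1 has library number 3. Whether equal title numbers mark matched pools is not given in the sources used here. As a replicate block, the title number gave 57 genes past the adjusted threshold for FoEV vs. Co. At an unadjusted p under 0.05 it gave 3, 1 and 3 of the 9 genes and 11, 3 and 9 of the 66 in the 3 comparisons. The share of all genes at that unadjusted threshold was not taken under this block.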
